A study of Bos taurus with 4 samples.

Results

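Open chromatin of fetal rumen on unplaced scaffolds, at places where adult rumen carried no called peak, is described here. A region is a stretch covered by overlapping peaks of the 4 libraries, merged where peaks shared at least 1 bp. A region was taken as fetal-only if it lay on a sequence other than the 29 autosomes and X, held a peak of at least 1 fetal library and held none of either adult library. The rule found 330 such regions among 5858 scaffold regions and 19749 regions in all, which is 5.63% of the scaffold regions (percent of all scaffold regions that met the rule). Of these, 81 (1.38% of all scaffold regions) carried a peak in both fetal libraries and 249 in 1 fetal library only, 120 in fetal 1 and 129 in fetal 2. The peak calls of all 4 libraries chose the regions, and the members were thus selected on those calls, so counts, fold enrichments and q-values of their peaks are a description and carry no test.

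The samples were Holstein rumen, all male and labelled wild type (WT). Fetal 1 and fetal 2 are rumen of fetuses at 90 days, taken at a slaughterhouse, and adult 1 and adult 2 are rumen of animals at 2 years. The series title asks how the rumen comes by its own functions. Whether the replicates are separate animals is not stated in the labels, so their spread may be technical, and with 2 libraries against 2 no exact two-sided permutation p can fall below 0.333. The samples are bulk tissue, in which fewer cells with an open site and less opening per cell cannot be told apart.

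The rumen is the fermentation chamber of the ruminant stomach. Before birth its wall is laid down as an immature epithelium over mesenchyme and muscle, and the papillae that absorb fermentation products mature after birth as the animal begins to eat solid feed. In ATAC-seq a transposase inserts adapters into DNA that is not wrapped tightly in nucleosomes, so fragments pile up over open promoters and enhancers. Unplaced scaffolds are assembled stretches that could not be put on a chromosome, often because they hold repeats, recent duplications or satellite DNA. Repeat content, genes and sequences of the scaffolds were not analysed here, and the rumen identity of the samples was not checked against marker genes. The genome build is not named by any source used here, and positions are 1-based on the sequence names of the deposited lists.

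Each library had its own peak list, and the adult lists were the longer and deeper ones. They held 8795 and 13934 peaks, of which 4070 and 4973 lay on scaffolds, against 1878 and 2788 fetal peaks with 1339 and 1833 on scaffolds. The fragment pileup at each summit was recovered as a whole number from the deposited fold and p-value. The genome-wide background in that unit was 0.495 and 0.426 fragments in the fetal libraries 1 and 2, and 1.37 and 1.61 in the adult ones. Over that background the shallowest peaks called held 5 fragments in the fetal lists and 8 in the adult lists. The fold enrichment is the authors' value and equals the summit pileup plus 1 over the local expected pileup plus 1, so a fold ranks a peak among those of its own list and says nothing of a change from fetus to adult.

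Few scaffold regions that were open in both fetal libraries lacked an adult peak. They were 81 of 1072, or 7.56% (95% Wilson interval 6.12 to 9.29). Regions open in 1 fetal library lacked one more often, at 120 of 257 (46.7%, 40.7 to 52.8) for fetal 1 and 129 of 666 (19.4%, 16.5 to 22.5) for fetal 2. For either fetal library the share was 16.5% of 1995 scaffold regions. On the autosomes and X, by comparison, 79.6% of the 1327 regions with a fetal peak had no adult peak (77.3 to 81.7), but only 7 of 132 open in both fetal libraries did (5.30%, 2.59 to 10.5). Of the 330 fetal-only scaffold regions, 24.5% were thus seen in both fetal libraries, while of the 1056 fetal-only regions on the autosomes and X those 7 were.

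The strongest fetal-only region lay at chrUn_NW_020191867v1:2117-2429. Its fold enrichment was 17.0 in fetal 1 and 18.9 in fetal 2, with pileups of 30 and 26 fragments, and the peak summits were 3 bp apart. No adult peak was called anywhere on that scaffold. The next region, at chrUn_NW_020191631v1:158267-158772, had folds of 16.5 and 15.9 and pileups of 36 and 24 fragments, with the nearest adult peak 8251 bp away. The third, at chrUn_NW_020190191v1:4466-4745, had folds of 13.4 and 13.3 and pileups of 19 and 18 fragments, and its scaffold also carried no adult peak. Only these 3 of the 81 regions reached a fold of 10 in both fetal libraries. Of the 991 scaffold regions open at both stages with a peak in both fetal libraries, 497 did. The fetal 1 and fetal 2 values of each of the 3 regions lay close together, which choosing regions by the lower of the 2 folds favours.

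The other 7 of the 10 strongest both-library regions, ranked by the lower of the 2 fetal folds, had lower folds of 7.71 to 9.48. At chrUn_NW_020191830v1:48258-48832 the fold was 11.0 in fetal 1 and 9.48 in fetal 2, and at chrUn_NW_020190851v1:294671-295749 it was 8.85 and 9.84. These were the broad ones of the set, at 575 and 1079 bp. The region at chrUn_NW_020191715v1:8814-9299 had folds of 8.79 and 9.11, its summits 2 bp apart. Narrower regions followed at chrUn_NW_020192098v1:7092-7356, with 10.1 and 8.69, and at chrUn_NW_020191168v1:10521-10732, with 10.5 and 8.44. These had an adult peak close by, at 883 and 538 bp. The last of the set were chrUn_NW_020191631v1:204912-205191, with folds of 9.06 and 8.26 and an adult peak only 77 bp away, and chrUn_NW_020190164v1:9957-10359, with 11.3 and 7.71. The regions at chrUn_NW_020191353v1:356-684 and chrUn_NW_020191375v1:14877-15159 were tied with the last, at a fold of 7.71 in fetal 2 and of 10.7 and 8.15 in fetal 1.

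Most fetal-only regions rested on few fragments. In fetal 1 the 201 peaks had a median pileup of 10.0 fragments (lowest 5, highest 92), and 106 of them held 10 fragments or fewer. In fetal 2 the median of 210 peaks was 8 (5 to 50), and 158 held 10 or fewer. Scaffold regions open at both stages had medians of 33.0 fragments in fetal 1 (n = 1128) and 23.0 in fetal 2 (n = 1528). Median folds were 5.50 and 5.53 in the fetal-only regions and 9.86 and 9.75 in the regions open at both stages. Fetal-only peaks were thus the shallower and weaker ones in each fetal library. The groups differ in make-up, as 81 of the 201 and 991 of the 1128 regions of fetal 1 had a peak in both fetal libraries. Among regions of fetal 1 alone the medians lay closer, with folds of 5.18 and 5.57 and pileups of 9 and 12 fragments. Among those of fetal 2 alone the folds were 5.12 and 7.01 and the pileups 7 and 15 fragments.

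**Figure D1:**
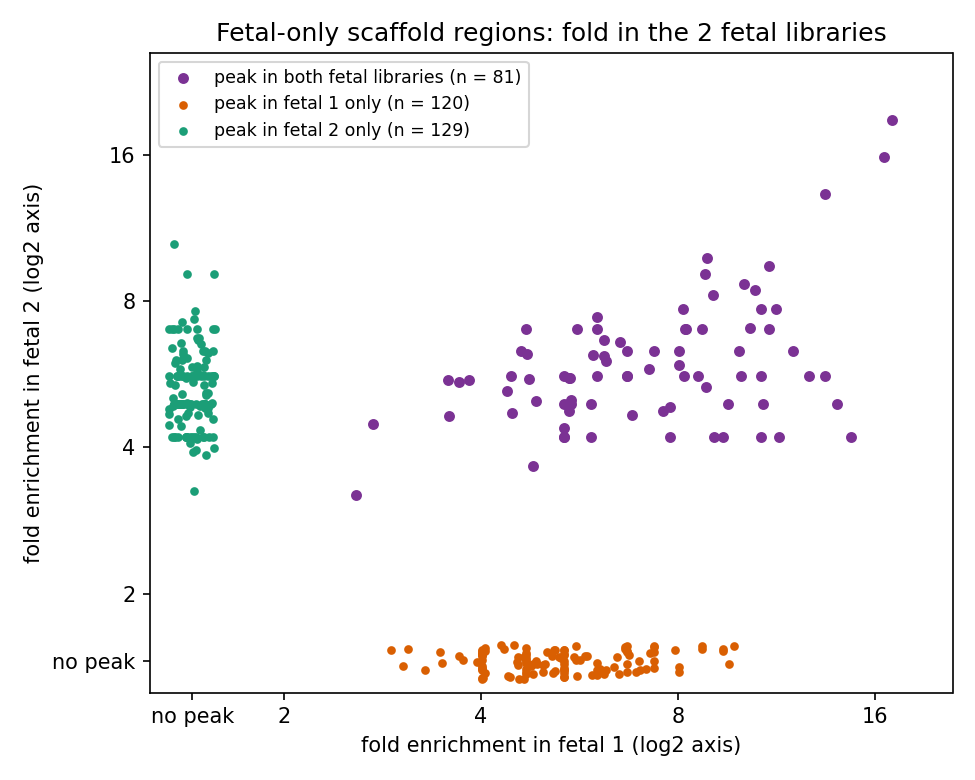
Fold enrichment of the 330 fetal-only scaffold regions in fetal 1 (x axis) and fetal 2 (y axis), both on log2 axes, 1 point per region; regions without a peak in a library are drawn at "no peak", with a small random shift across the axis. Only 3 of the 81 regions with a peak in both lie at 10 or more in both libraries, while most points of either library lie below 8. Among regions open at both stages with a peak in both fetal libraries, not drawn here, 497 of 991 do.

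The share of fetal scaffold regions without an adult peak was lower the stronger the fetal peak. With −log10 q under 3, 53 of 95 regions of fetal 1 (55.8%, 45.8 to 65.4) and 78 of 158 of fetal 2 (49.4%, 41.7 to 57.1) had none. From 3 to under 5 the shares were 39.2% and 31.3%, and from 5 to under 10 they were 23.0% and 15.6%. At 10 or more they were 41 of 860 (4.77%, 3.53 to 6.40) and 17 of 1026 (1.66%, 1.04 to 2.64). Neighbouring intervals overlapped between the lowest and the next class in fetal 1, and the top class lay apart from the others in both libraries.

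**Figure D2:**
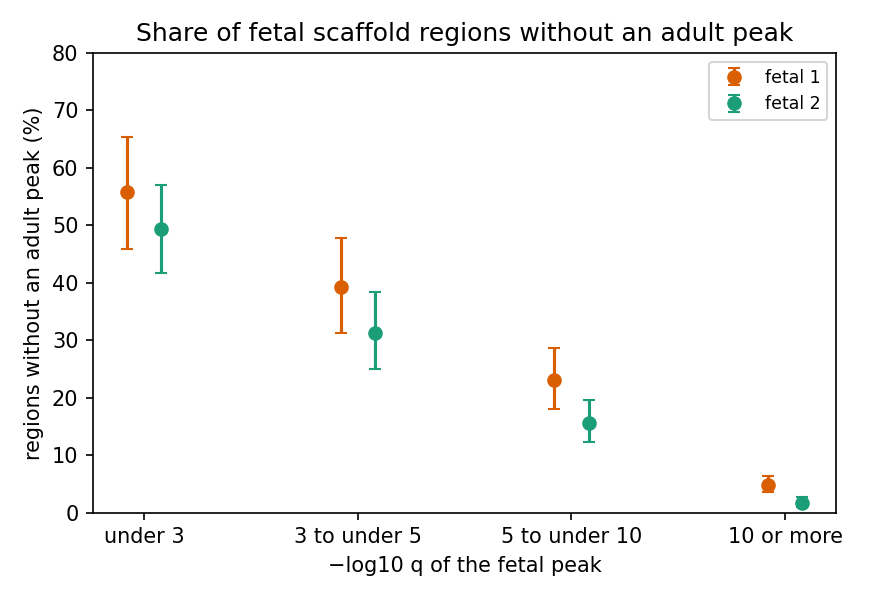
Percent of scaffold regions with a fetal peak that had no adult peak (y axis), by −log10 q of the fetal peak (x axis), for fetal 1 and fetal 2; bars are 95% Wilson intervals, which cover counting error only. The share is 55.8% and 49.4% in the weakest class and 4.77% and 1.66% in the strongest.

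Both-library regions had a higher median fold and −log10 q than one-library regions, by more in fetal 1 than in fetal 2. The median fold in fetal 1 was 7.23 in the 81 both-library regions (95% interval of the median 6.02 to 8.19) and 5.18 in the 120 regions of fetal 1 alone (4.77 to 5.35). The median −log10 q there was 9.08 (7.24 to 10.9) against 3.49 (3.19 to 3.94). In fetal 2 the median fold was 5.61 (5.52 to 6.17) in both-library regions and 5.12 (4.91 to 5.61) in the 129 regions of fetal 2 alone. The median −log10 q there was 4.64 (3.92 to 5.31) against 3.92 (2.73 to 3.92). The fetal 1 intervals did not overlap in the full lists, and those of fetal 2 met or overlapped. With −log10 q of at least 5 in the fetal lists only, the fetal 1 intervals overlapped too. The fetal 1 differences were then 1.44 for fold and 4.53 for −log10 q, in place of 2.05 and 5.58. With that limit in all lists the fetal 1 intervals overlapped for fold, at a difference of 1.55, and not for −log10 q, at 4.54. The fetal 2 differences depended on the lists: in place of 0.715 for −log10 q and 0.485 for fold they were 2.57 and 1.14 without adult 1, 2.61 and 1.26 with equally long lists, and 5.34 and 2.33 with a cover of 50% of the region. With peaks joined within 1000 bp they were 0 and 0.231. Median pileups of both-library and one-library regions were 15 and 9 fragments in fetal 1, and 9 and 7 in fetal 2. Regions open at both stages differed in the same direction. With peaks in both fetal libraries or in 1, their median folds were 10.7 and 5.57 in fetal 1, and 12.1 and 7.01 in fetal 2. The median −log10 q of these regions was 28.1 and 5.33 in fetal 1, and 26.4 and 8.86 in fetal 2.

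Within the 81 both-library regions the fold was higher in fetal 1 at 54. In regions open at both stages with a peak in both fetal libraries it was higher in fetal 1 at 283 of 991. The 2 folds followed each other loosely, with a Pearson correlation of 0.472 on the log2 scale and a Spearman correlation of 0.375 across these 81 regions. In the 991 scaffold regions that both fetal libraries shared with an adult library the correlations were 0.894 and 0.876. These are correlations across regions of the same 2 libraries, over a narrower range of folds in the fetal-only regions. The summits of the fetal peaks lay a median of 17.0 bp apart (10.0 to 29.0), and within 100 bp at 70 of the 81 regions (86.4%). The rule itself limits this gap, since peaks had to overlap to form a both-library region. In the regions open at both stages the median was 9 bp, and within 100 bp at 89.0%.

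How often a fetal-only region of one fetal library had a peak in the other was set beside the same share for regions with an adult peak. Of the 201 fetal-only regions of fetal 1, 81 (40.3%, 33.8 to 47.2) had a peak in fetal 2, against 991 of 1128 regions with an adult peak (87.9%, 85.8 to 89.6). Of the 210 of fetal 2, 81 (38.6%, 32.2 to 45.3) had one in fetal 1, against 991 of 1528 (64.9%, 62.4 to 67.2). Within classes of −log10 q in fetal 1 the intervals of the 2 kinds did not overlap from 3 upward. With −log10 q from 5 to under 10 it was 23 of 56 (41.1%, 29.2 to 54.1) against 139 of 188 (73.9%, 67.2 to 79.7), and from 3 to under 5 it was 33.3% (22.0 to 47.0) against 59.5% (48.5 to 69.6). At 10 or more, 35 of 41 fetal-only regions of fetal 1 recurred (85.4%, 71.6 to 93.1), against 96.8% (95.4 to 97.8). That class has no upper limit, so the 2 kinds are not matched in strength within it. Fetal-only −log10 q reached 35.8 in fetal 1 and 33.7 in fetal 2, and regions open at both stages reached 3843 and 3300. Under 3 the intervals overlapped, at 11.3% (5.29 to 22.6) and 28.6% (17.2 to 43.6). In fetal 2 the intervals overlapped in each of the 4 classes, with shares of 48.3% (35.9 to 60.8) against 47.1% (41.7 to 52.7) from 5 to under 10, and of 58.8% (36.0 to 78.4) against 76.8% (74.1 to 79.3) at 10 or more. Adult-only scaffold regions recurred at 70.7% from adult 1 to adult 2 (n = 2264) and 50.0% from adult 2 to adult 1 (n = 3200). The adult libraries differ from the fetal ones in depth, and the part of depth in these shares was not tested.

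**Figure D3:**
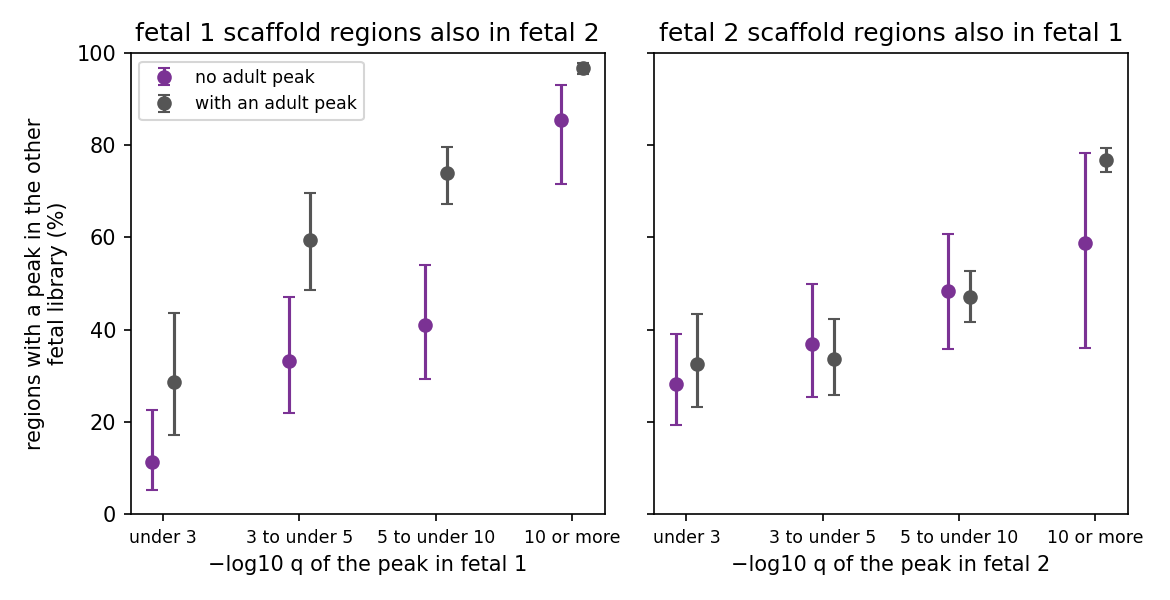
Percent of scaffold regions of fetal 1 with a peak in fetal 2 (left) and of fetal 2 with a peak in fetal 1 (right), by −log10 q of the peak, for regions without and with an adult peak; bars are 95% Wilson intervals. From fetal 1 the regions without an adult peak lie lower, at 41.1% against 73.9% from 5 to under 10, while from fetal 2 the points nearly coincide there, at 48.3% and 47.1%.

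Some strong fetal peaks without an adult peak were found in 1 fetal library only. In fetal 1 they numbered 6 at −log10 q of 10 or more. The highest folds among them were 9.74 at chrUn_NW_020190525v1:2547-2920, 9.58 at chrUn_NW_020190219v1:29538-29854 and 9.36 at both chrUn_NW_020191112v1:13162-13361 and chrUn_NW_020191348v1:24718-25399. The next region of fetal 1 alone by fold, at chrUn_NW_020190189v1:11298-11614, had 8.69 and a −log10 q of 9.96, equal in both to the region at chrUn_NW_020190755v1:30829-31137. The fetal 1 regions named here rested on 12 to 15 fragments each. In fetal 2 the highest fold was 10.5, with 14 fragments, at chrUn_NW_020191631v1:17467-17621. It was followed by 9.11, with 12 fragments, at both chrUn_NW_020190393v1:33474-33666 and chrUn_NW_020190826v1:33625-33821. Then came 7.65 at chrUn_NW_020191631v1:138879-139002 and 7.37 at chrUn_NW_020192150v1:36327-36454, with 10 fragments each. Of the 7 regions of fetal 2 alone at −log10 q of 10 or more, 4 lay on a single scaffold, chrUn_NW_020192195v1.

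Both-library regions were wider, by a margin that merging helps to set, since a region spans the peaks of both libraries. The median region width was 328 bp in both-library regions (283 to 363), 253 bp (239 to 286) in those of fetal 1 alone and 154 bp (146 to 167) in those of fetal 2 alone. The single peaks show the same order within each library. In fetal 1 the peak of a both-library region had a median width of 286 bp (262 to 342) against 253 bp, and in fetal 2 it was 231 bp (203 to 253) against 154 bp. The intervals overlapped in fetal 1 and did not in fetal 2. Regions open at both stages had the same order, with median peak widths of 380 and 258 bp in fetal 1, and 311 and 157 bp in fetal 2. Fetal 2 peaks were narrower in general, with a scaffold median of 227 bp against 347 bp in fetal 1, and 96 of the 129 regions of fetal 2 alone measured under 200 bp. The widest fetal-only region, chrUn_NW_020190454v1:62490-63571, measured 1082 bp and was the only one with 2 peaks in each fetal library.

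Adult peaks were nearby for a part of the fetal-only regions and far away or absent for others. An adult peak lay within 1000 bp of 91 of the 330 regions (27.6%, 23.0 to 32.6), between 1000 and 10000 bp from 150 (45.5%) and farther than 10000 bp from 41 (12.4%, 9.29 to 16.4). The remaining 48 (14.5%, 11.1 to 18.8) lay on scaffolds with no adult peak. Scaffold regions open at both stages had another adult peak within 1000 bp at 55.1% (52.7 to 57.4) and none elsewhere on the scaffold at 4.26% (3.39 to 5.34). Where there was an adult peak, the median distance was 2079 bp for fetal-only regions (1535 to 2614, n = 282) and 738 bp for regions open at both stages (669 to 816, n = 1594). By median distance fetal-only regions thus lay farther from adult peaks than the regions open at both stages did. The adult calls behind these distances and shares also chose both kinds of region, so this is a description. The lengths of the scaffolds are not in the lists.

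By median distance the both-library regions did not stand apart from those of 1 library, while close adult peaks were more frequent beside them than beside the regions of fetal 1 alone. The median was 1549 bp (944 to 3501, n = 69) in both-library regions, 2880 bp (2100 to 4554, n = 100) in those of fetal 1 alone and 1386 bp (1100 to 2447, n = 113) in those of fetal 2 alone. The both-library interval overlapped each of the others. An adult peak lay within 1000 bp of 38.3% of both-library regions (28.4 to 49.2), 16.7% of those of fetal 1 alone (11.1 to 24.3) and 31.0% of those of fetal 2 alone (23.7 to 39.4). The first of these intervals lay above the second and overlapped the third. Shares on scaffolds without an adult peak were 14.8%, 16.7% and 12.4%. The difference of the medians between both-library and all one-library regions, at -651 bp, turned to 680 bp without adult 2, to 11.0 bp with peaks of −log10 q of at least 5 only, and to 2035 bp with peaks joined within 1000 bp. With a cover of 50% of the region it was -1021 bp, where an adult peak covering less of a region counted as 0 bp away.

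**Figure D4:**
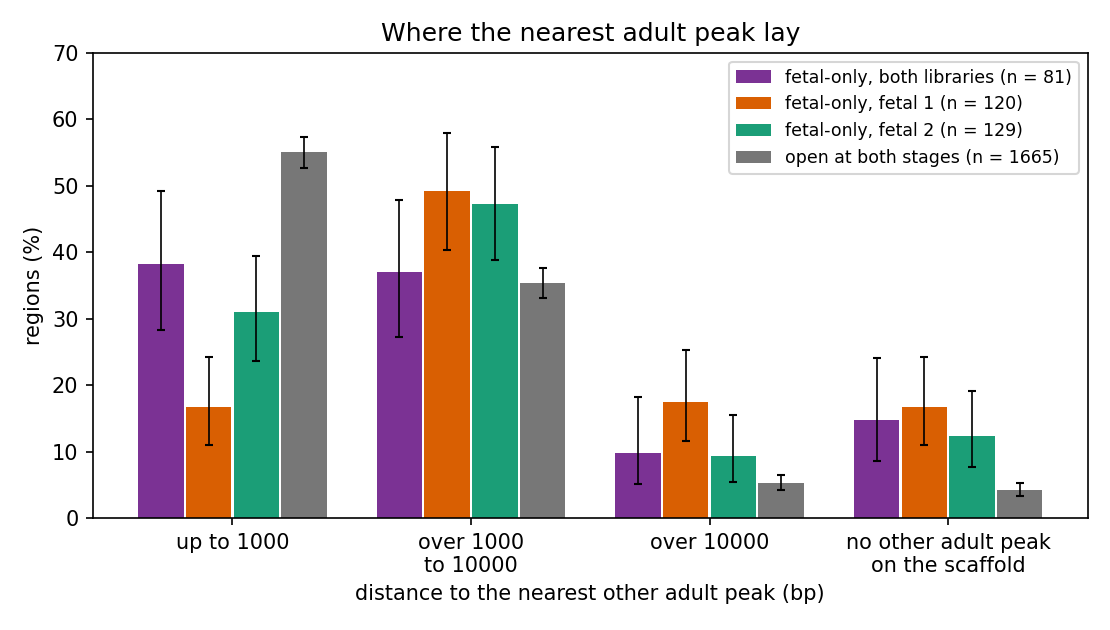
Percent of regions (y axis) by distance to the nearest other adult peak on the same scaffold (x axis), for fetal-only regions of both libraries, of fetal 1 and of fetal 2, and for scaffold regions open at both stages; bars are 95% Wilson intervals. Regions open at both stages have an adult peak within 1000 bp at 55.1%, against 16.7% to 38.3% of the fetal-only kinds, and lie without another adult peak on the scaffold at 4.26%, against 12.4% to 16.7%.

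At the edge of the rule the nearest adult peak was 9 bp from the region of fetal 1 at chrUn_NW_020191541v1:2333-2518, with a fold of 3.71. It was 20 bp from that of fetal 2 at chrUn_NW_020190465v1:5907-6056, with 5.75, and 43 bp from that of fetal 1 at chrUn_NW_020192290v1:158009-158199, with 5.02. Just outside the rule, at chrUn_NW_020191617v1:59535-59807, fetal 1 (fold 4.60) and adult 1 (fold 6.75) peaks shared 19 bp. At chrUn_NW_020190343v1:4543-4938 fetal and adult peaks shared 27 bp and at chrUn_NW_020190605v1:19958-20258 they shared 30 bp. The weakest member had a −log10 q of 1.35, at chrUn_NW_020190609v1:3490-3656 in fetal 2. Several regions of fetal 1 were tied at 1.37, among them chrUn_NW_020190240v1:197693-198014 and chrUn_NW_020190434v1:60207-60451. The 3 named here held 5 or 6 fragments. At the other end an adult peak was 97173 bp away at chrUn_NW_020190994v1:526357-526523, and 82612 and 81805 bp away at a pair of neighbouring regions on chrUn_NW_020191285v1, from 102114 to 102462 and from 101307 to 101546.

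The fetal-only regions were spread over many scaffolds. They lay on 226 of the 688 scaffolds that carried a fetal peak. Of these, 159 held 1 fetal-only region, 47 held 2 and 20 held 3 or more. Regions open at both stages lay on 153 of the 226 scaffolds, together with 230 of the 330 fetal-only regions. The 81 both-library regions lay on 71 scaffolds, and 59 of the 249 one-library regions shared a scaffold with one. Regions of 1 scaffold are neighbours in 1 stretch of DNA and not independent of each other.

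The scaffold with the most fetal-only regions was chrUn_NW_020191631v1, with 13. Of these, 6 were open in both fetal libraries, 6 in fetal 2 alone and 1 in fetal 1 alone, and 12 of the 13 lay between 111947 and 231954. The remaining one, from 17467 to 17621, has the highest fold of the regions of fetal 2 alone. The second both-library region of the whole set, from 158267 to 158772, stood at the end of a run of 4 fetal-only regions that began at 125528 and spanned 33245 bp with no adult peak between them. A further both-library region, from 225006 to 225311, had folds of 8.82 and 5.32. In the same stretch 3 regions were open in both fetal libraries and in adult rumen. From 170353 to 170677 the folds were 11.4 and 10.9 in fetal 1 and fetal 2 and 5.91 in adult 1, with no peak in adult 2. From 173287 to 173606 they were 10.2 and 14.3 in the fetal libraries and 6.75 and 4.98 in the adult ones. From 212948 to 213596 they were 8.66 and 10.5 in the fetal libraries and 5.91 and 4.56 in the adult ones. Each fold ranks a peak within its own list only, so no order between the stages is read from these values. Near the start of the scaffold, at 34156 to 34550, the adult folds were 36.6 and 40.8, fetal 1 had 5.26 and fetal 2 had no peak. From 20830 to 21056 adult folds were 22.8 and 33.3 with no fetal peak. The 3 highest folds of each fetal library on this scaffold thus lay from 158267 on, and the 3 highest of each adult library up to 34550. This scaffold was the one chosen for its number of fetal-only regions, so the pattern is a description.

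**Figure D5:**
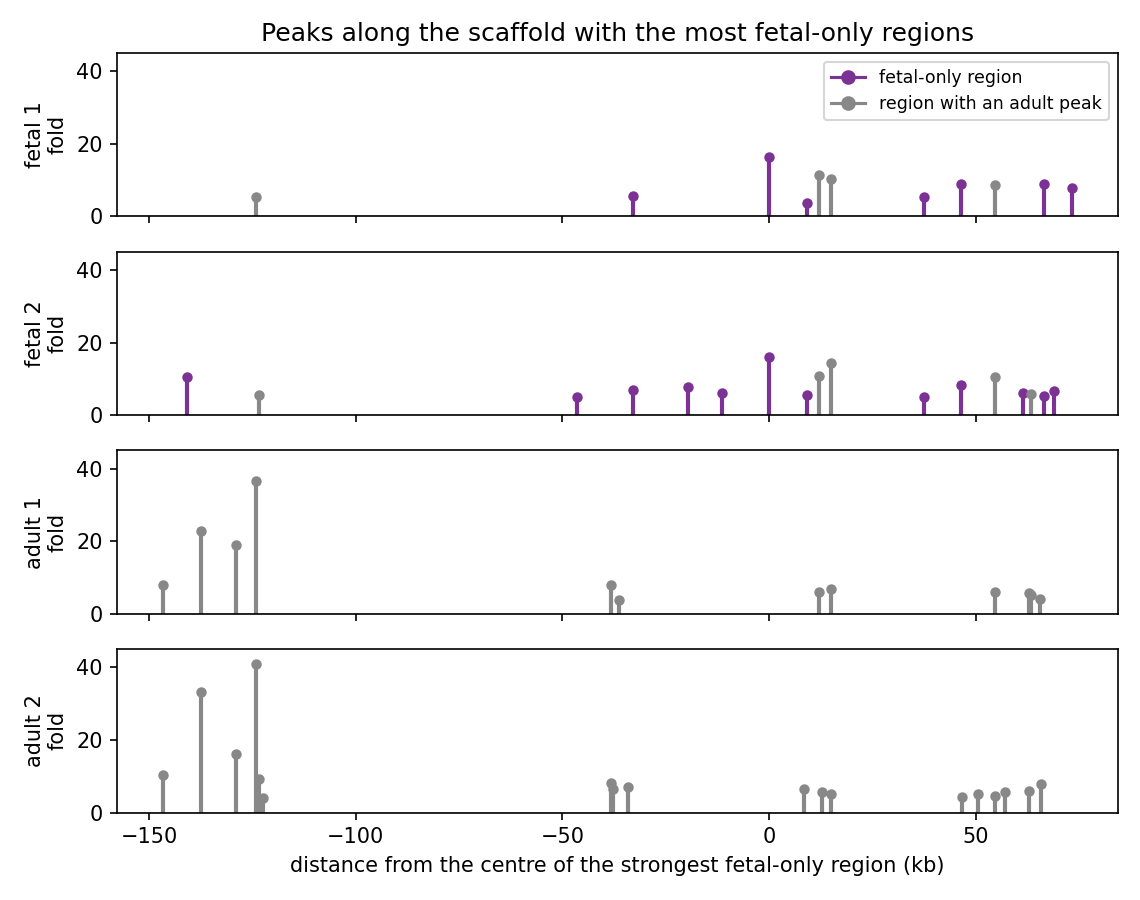
Fold enrichment of each peak region (y axis, 1 panel per library) along scaffold chrUn_NW_020191631v1, by distance in kb from the centre of its strongest fetal-only region (x axis). Fetal-only regions, 13 in all, lie mostly to the right in the upper panels, where adult folds are low, while the highest adult folds, 36.6 and 40.8, stand at the left end.

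The second scaffold, chrUn_NW_020192195v1, carried 6 fetal-only regions and no adult peak. All 6 had a peak in fetal 2, with folds of 4.34 to 5.52, −log10 q of 10.7 to 15.3 and pileups of 36 to 41 fragments, and they lay between 1422 and 9456. Fetal 1 had peaks at 2 of them, with folds of 3.56 and 3.58, −log10 q of 2.82 and 3.11 and pileups of 17 and 18 fragments. The local expected pileup was high there, at 6.16 to 8.22 fragments in fetal 2 and 4.06 and 4.30 in fetal 1, many times the genome-wide background of each library. The adult lists hold no value for a place without a peak, so adult coverage of this scaffold was not analysed here.

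The next 4 scaffolds held 4 fetal-only regions each. On chrUn_NW_020190525v1 one was open in both libraries, from 1572 to 2042, with folds of 9.09 in fetal 1 and 4.21 in fetal 2, and 3 in fetal 1 alone. The same scaffold carried 2 regions open in all 4 libraries, the stronger with folds of 29.1, 43.7, 102 and 97.4 in fetal 1, fetal 2, adult 1 and adult 2. On chrUn_NW_020191285v1, 2 were open in both libraries, with folds of 12.0 and 6.31 and of 7.79 and 4.21, and 2 in fetal 1 alone, and the adult libraries together had 1 peak. On chrUn_NW_020190826v1 all 4 were open in fetal 2 alone, with folds of 4.21 to 9.11, among 32 adult-only regions. On chrUn_NW_020191395v1, tied with these, 1 was open in both libraries, with folds of 8.57 and 5.61, and 3 in fetal 1 alone, beside 13 adult-only regions. These scaffolds therefore ranged from nearly free of adult peaks to densely covered by them.

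Scaffolds on which only fetal peaks were called numbered 33 and held 48 fetal-only regions, 12 of them open in both fetal libraries. Of these scaffolds 23 held 1 such region. Their furthest peak end had a median of 9456 bp, against 31361 bp on the other scaffolds with a fetal-only region. This is the position of the last peak and not a length covered by peaks. The peaks had a median fold of 5.62 in fetal 1 (n = 32, 3.46 to 17.0) and 5.48 in fetal 2 (n = 28, 4.08 to 18.9), near those of all fetal-only regions. On chrUn_NW_020191375v1 both regions were open in both fetal libraries, with folds of 8.15 and 7.71 at the first and 5.89 and 4.21 at the second.

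Local background was lower around fetal-only peaks than around peaks shared with adult rumen. An expected pileup of at least 5 times the genome-wide background was found at 20 of 201 fetal-only peaks of fetal 1 (9.95%, 6.53 to 14.9) and at 529 of 1128 regions open at both stages (46.9%, 44.0 to 49.8). In fetal 2 these were 19 of 210 (9.05%, 5.87 to 13.7) and 32.5% (30.2 to 34.8). A few fetal-only peaks nevertheless stood on high background. At chrUn_NW_020191320v1:15202-15460 the pileup was 92 fragments over 35.0 expected in fetal 1 and 49 over 14.7 in fetal 2. There the folds were only 2.58 and 3.19, the summits lay 1 bp apart, and an adult peak lay 559 bp away.

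The adult lists hold no values where no peak was called, so the absence of an adult peak is the absence of a call. The part of adult and fetal depth in it was not tested.

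The number of fetal-only regions moved with single libraries. Without adult 1 there were 122 regions open in both fetal libraries, and without adult 2 there were 150, in place of 81. All fetal-only regions numbered 404 and 535 in these cases, and 203 without fetal 2. Leaving out an adult library only takes adult calls away, so it could not lower these counts.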

How the data were processed

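ATAC-seq peak lists of 2 fetal and 2 adult rumen libraries were used, 1 list per library as deposited. Each peak of the deposited lists, laid out as narrow peaks, has a score, a fold enrichment (a ratio), a −log10 p and a −log10 q, all computed by the authors' peak caller; the score was not used. The lists end at a q-value of 0.050. No source used here names the caller, aligner, filters or build. The submitters' processing notes name FastQC 0.11.5, Trimmomatic 0.36, Bismark 0.16.3 and Bowtie2 without saying for which assay, and the labels' protocols describe bisulfite libraries.

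Peaks were merged at an overlap of at least 1 bp with Python 3.11.15 and pandas 2.3.3, and each region took the fold and −log10 q of its strongest peak by fold. Distances count the bases between a region and the nearest peak outside it. A pileup k and expected pileup m were sought with fold (k + 1)/(m + 1) and a Poisson probability of more than k equal to p, and 100% of peaks matched within a relative tolerance of 0.0001. The code was tested on simulated data, where it recovered what was planted. Shares carry 95% Wilson intervals and medians exact binomial order-statistic intervals (SciPy 1.17.1), which cover counting error only: PCR fragments are not independent molecules, and neighbouring regions are not independent either. No test between stages was run.

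Members, groupings and comparisons were chosen with earlier results of these data known. Regions are named by rule: the 10 strongest both-library regions by the lower fold, the 5 strongest of each single library, the 5 scaffolds with most members (with 1 more that tied), and the 3 nearest, farthest, weakest and just-outside regions. Others, the run lengths, the strong one-library regions, and the raised local background were chosen after the values were seen. The alternatives were a stricter q, equally long lists, a 50% cover, joining within 1000 bp, and leaving out each library. The gene table at hand gives no scaffold names, so no gene was assigned and no gene list was counted.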

Additional observations from a re-analysis of the deposited data

How the results depend on the processing

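The sizes of the set depend on how peaks are counted. Instead of 330 fetal-only regions there were 198 with −log10 q of at least 5 in all lists, 142 with that limit on the fetal lists only, 506 with a 50% cover and 770 with equally long lists, in which peaks of fetal 2 and of both adult libraries were removed. Leaving out each library gave 203 to 535. Regions open in both fetal libraries, 81 in the full lists, numbered 51, 31, 151 and 254 in the same order, 51 with peaks joined within 1000 bp, and 122 to 223 without a library, where a left-out fetal library leaves the other to stand for both. With the limit of 5 on all lists 141 of the 330 regions overlapped a fetal-only region, and with equally long lists 266 did. The difference of median −log10 q between both-library and one-library regions in fetal 1, 5.58, was 8.55 with equally long lists, 8.19 with a 50% cover and 5.92 to 8.44 without an adult library. In fetal 2 it was 0.715, and 2.61 and 5.34 with those 2 alternatives. The difference of median fold in fetal 2, 0.485, was 1.26 and 2.33 there. The difference of median distance, -651 bp, was 11.0 bp with −log10 q of at least 5 in all lists, 2035 bp with peaks joined within 1000 bp, and -330 to 680 bp without an adult library (680 bp without adult 2). The other values, 43 of 68, kept their direction and stayed within 1.5 times for counts or within the interval of the difference, though the difference in −log10 q in fetal 2 was 0 with joined peaks. No sequence was named as a mitochondrion or Y, so leaving these out could change nothing. The values of that setting are counted among the 43 and the 68, and are the same by construction. A stricter limit leaves fewer peaks by its construction. Set on all lists it also removes adult peaks, which can add fetal-only regions, so the direction of their count was not fixed there. Leaving out an adult list can only take adult calls away, so the count of fetal-only regions could not fall. All 330 regions also stayed with a 50% cover. For the remaining changes the cause was not tested. No paired analysis was possible because the numbers 1 and 2 tie no fetal library to an adult one and the counts and medians come from no test. The weakest fetal peaks over plain background held 5 fragments, and the part of depth in the size of the set was not tested.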
